A study of Sus scrofa with 5 samples.

Results

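In the mouse, dorsal root ganglion neurons that carry the growth factor receptor subunit GFRA2 include 2 types of unmyelinated fibre. Neurons named after the receptor MRGPRD end in the epidermis, respond to noxious mechanical stimuli and carry the lysophosphatidic acid receptor LPAR3. C-fibre touch neurons end around hairs, respond to gentle stroking and carry SLC17A8, the vesicular glutamate transporter VGLUT3. The comparison described here asks whether nuclei of pig dorsal root ganglion neurons with GFRA2 part along LPAR3 and SLC17A8. Members were chosen by measured values, the UMI counts of these 3 genes and of each nucleus. They were nuclei with at least 2 GFRA2 unique molecular identifiers (UMIs, counted RNA molecules) and 2000 to 50000 UMIs in total. The LPAR3 side held at least 1 LPAR3 UMI and no SLC17A8 UMI, and the SLC17A8 side held at least 1 SLC17A8 UMI and no LPAR3 UMI. Of 2189 nuclei in the table, 1635 lay in the depth window and 205 of these were GFRA2 nuclei. The LPAR3 side had 39 nuclei, the SLC17A8 side had 32, 95 nuclei held both genes and 39 held neither.

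All samples were thoracic and lumbar dorsal root ganglia of 5 male Landrace pigs with no treatment named in the labels, a single group. Single-nucleus RNA sequencing of 3' ends was run on nuclei isolated by several protocols that differed in detergent and in enrichment for neuronal nuclei. The sources used here give no age for the pigs. The deposited table holds 17277376 UMIs over 30477 genes, with 501 to 338372 UMIs per nucleus and a median of 4565. Barcode endings mark 6 libraries that share 0 barcodes, and nothing ties a library to a pig or a protocol, so the table is 1 pooled sample. There is therefore no test and no p-value below. Intervals are exact 95% intervals that cover counting error only, and nuclei are not replicates.

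LPAR3 and SLC17A8 were often found together in the same GFRA2 nuclei, in a share that varied with library and depth. Nuclei with both made up 46.3% of the 205 (interval 39.4% to 53.4%), against 19.0% with neither (13.9% to 25.1%). Of the 166 nuclei with either gene, 57.2% held both (49.3% to 64.9%), an interval that includes 50%. That share was 56.3%, 75.8% and 76% in libraries 1, 3 and 6. It was 44.4% of 72 nuclei in library 5 and 25% of 4 in library 4. After a random draw of 2000 UMIs per nucleus it was 17.8% of 73 nuclei. LPAR3 was present in 74.8% of 127 nuclei with SLC17A8 (66.3% to 82.1%) and in 50% of 78 nuclei without it (38.5% to 61.5%). In RefSeq's annotation of Sscrofa11.1, SLC17A8 lies on chromosome 5 at 83741641 to 83809472 and LPAR3 on chromosome 6 at 128860210 to 128937769. GFRA2 has 2 RefSeq entries, on chromosome 14 at 3138174 to 3209687 and at 5743583 to 5837470, and 1 row in the table.

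Most nuclei on either side rested on a single molecule of the gene that placed them there. On the LPAR3 side, 20 of 39 nuclei had 1 LPAR3 UMI, 9 had 2 and the highest had 6. On the SLC17A8 side, 19 of 32 nuclei had 1 SLC17A8 UMI, 8 had 2 and the highest had 7. Nuclei with both reached 15 LPAR3 UMIs and 9 SLC17A8 UMIs. In CPM, the gene's UMIs scaled to 1000000 UMIs of the summed group, LPAR3 was 203 on its side and 206 in the nuclei with both. SLC17A8 was 112 CPM on its side and 194 CPM in the nuclei with both. GFRA2 was 420 CPM on the LPAR3 side, 271 on the SLC17A8 side, 441 in the nuclei with both and 245 in those with neither. These levels describe how the groups were cut, since all 3 genes belong to the rule.

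**Figure D1:**
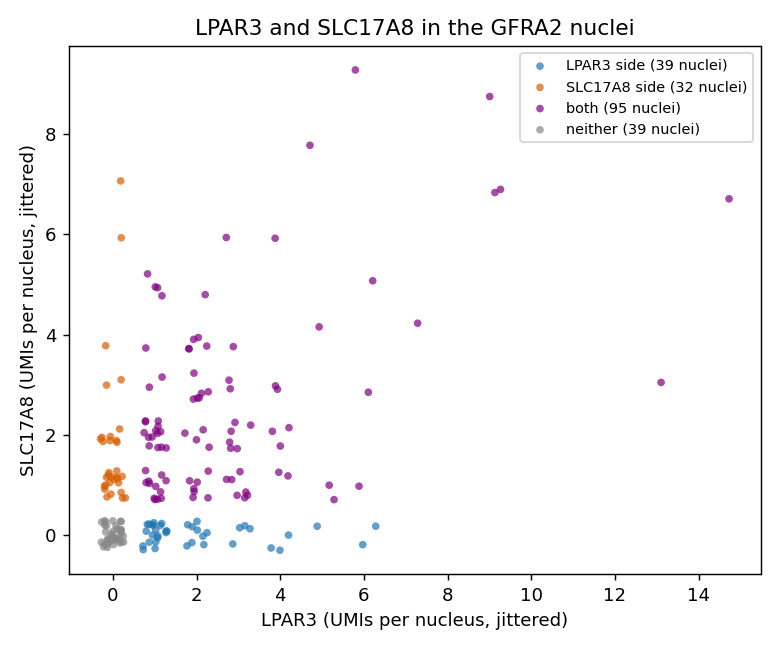
UMIs of LPAR3 (horizontal axis) and SLC17A8 (vertical axis) in each of the 205 GFRA2 nuclei, jittered around whole numbers and coloured by group. The 95 nuclei with both genes fill the plane between the axes, and no nucleus with more than 7 UMIs of one gene lacks the other.

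Nuclei with many molecules of the pair are described next. They were picked on the sum of the 2 genes that define the sides, which nuclei with both reach more easily, so nothing is read from their balance. Of 54 nuclei with at least 5 UMIs of LPAR3 and SLC17A8 together, 49 held both, 3 held LPAR3 only and 2 held SLC17A8 only. LPAR3 made up a median of 52.3% of these UMIs, with quartiles at 34.6% and 65.9%, and 41 of the 54 nuclei lay between 20% and 80%. All 13 nuclei with at least 8 such UMIs held both genes, with an LPAR3 share of 33.3% to 81.25%.

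Libraries differed in how the pair was distributed. Library 5 gave 82 of the 205 nuclei, with 26 on the LPAR3 side, 14 on the SLC17A8 side, 32 with both and 10 with neither. Library 1 gave 5, 9, 18 and 10 nuclei in the same order, library 3 gave 7, 1, 25 and 3, library 4 gave 0, 3, 1 and 2, and library 6 gave 1, 5, 19 and 14. Library 2 gave no GFRA2 nucleus in the window. Library 5 was the one library with at least 10 nuclei on each side, and it held 26 of the 39 nuclei of the LPAR3 side.

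The joint detection was seen in 3 of the 4 libraries with enough nuclei and not in library 5. LPAR3 was present in 66.7% of nuclei with SLC17A8 against 33.3% without it in library 1, in 96.2% against 70.0% in library 3, and in 79.2% against 6.67% in library 6, with overlapping intervals in libraries 1 and 3. In library 5 the shares were 69.6% (54.2% to 82.3%) and 72.2% (54.8% to 85.8%). No association was seen there, but intervals this wide do not exclude one in either direction. When nuclei with at least 3 UMIs of another neuron type's marker were left out, the library 5 shares were 76.5% and 80.0%. Nuclei with neither gene formed 12.2% of library 5 and 35.9% of library 6.

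The joint detection was also read by depth. In the shallowest of 3 depth groups of equal size, with a median of 5998 UMIs, LPAR3 was present in 77.8% of nuclei with SLC17A8 and 42.4% without. The middle group gave 80.0% and 69.6%. The deepest group, with a median of 19646.5 UMIs, gave 67.4% (52.0% to 80.5%) and 40.9% (20.7% to 63.6%). Intervals overlapped in both the middle and the deepest group. After each of the 205 nuclei was thinned to 2000 UMIs, LPAR3 was present in 41.9% of 31 nuclei with SLC17A8 (24.5% to 60.9%) and in 24.1% of 174 without (18% to 31.2%). At that depth only 6.34% of nuclei still showed both genes and 64.4% showed neither, where 46.3% and 19.0% did before thinning. The intervals of the thinned shares overlap.

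**Figure D2:**
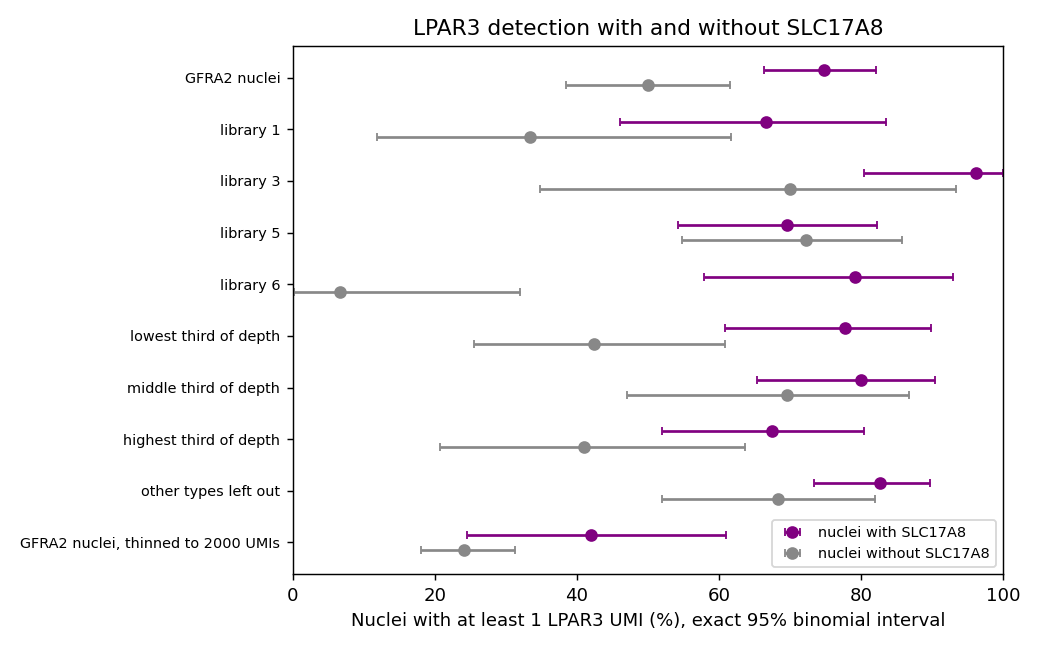
Share of nuclei with at least 1 LPAR3 UMI among GFRA2 nuclei with SLC17A8 (purple) and without it (grey), in all 205, by library, by depth group, without nuclei that carried other neuron types' markers, and after thinning, with exact 95% intervals. The purple point lies to the right in every row apart from library 5, where it is 69.6% against 72.2%.

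Outside the GFRA2 nuclei both genes were less frequent, and among 4 reference classes SLC17A8 was most frequent in the IL31RA class. Of all 1276 nuclei in the window with 0 GFRA2 UMIs (median 5367.5 UMIs), 6.90% held LPAR3, 14.8% SLC17A8 and 2.98% both. There LPAR3 was present in 20.1% of 189 nuclei with SLC17A8 (14.6% to 26.5%) and 4.60% of 1087 without (3.43% to 6.02%). The reference classes cover only part of these nuclei. Reference classes were cut from nuclei with 0 GFRA2 UMIs by marker counts. Among 222 nuclei with the itch cytokine receptor subunit IL31RA (median 9446.5 UMIs), 4.50% held LPAR3 (2.18% to 8.13%) and 28.8% held SLC17A8 (23.0% to 35.3%). Among 110 nuclei with the peptide ADCYAP1 (median 8246 UMIs), the shares were 1.82% and 7.27%. Among 85 nuclei with the cold channel TRPM8 (median 6860 UMIs) they were 7.06% and 9.41%, and among 162 large-fibre nuclei (median 6112.5 UMIs) 3.70% and 10.5%. The GFRA2 nuclei, with a median of 9833 UMIs, held LPAR3 in 65.4% and SLC17A8 in 62.0%.

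SLC17A8 in the IL31RA class was present in each of the 4 libraries with enough nuclei. Its share there was 43.1% of 65 nuclei in library 1, 20.7% of 82 in library 3, 29.0% of 31 in library 5 and 24.4% of 41 in library 6. Its level in the class was 38.8 CPM, against 7.63 CPM in the ADCYAP1 class, 9.39 in the TRPM8 class and 17.3 in the large-fibre class. Thinned to 2000 UMIs, 5.86% of IL31RA nuclei (3.15% to 9.81%), 3.09% of large-fibre nuclei (1.01% to 7.06%), 1.18% of TRPM8 nuclei (0.0298% to 6.38%) and 0.909% of ADCYAP1 nuclei (0.0230% to 4.96%) held SLC17A8, with overlapping intervals. In library 5, 30.8% of 13 large-fibre nuclei held it. LPAR3 was found in 1.82% to 7.06% of the 4 reference classes. The part of free RNA in these shares was not tested.

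**Figure D3:**
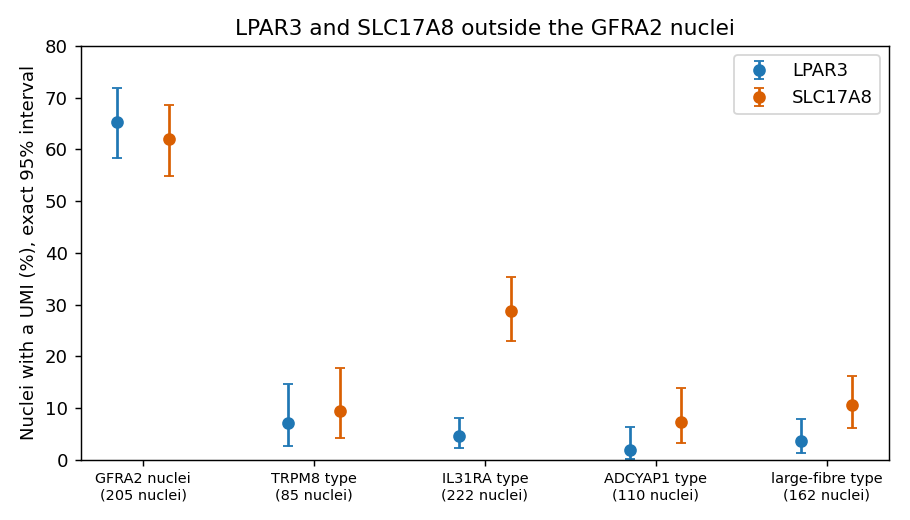
Share of nuclei with at least 1 UMI of LPAR3 (blue) or SLC17A8 (orange) in the GFRA2 nuclei and in 4 reference classes with 0 GFRA2 UMIs, with exact 95% intervals. Both genes are above 60% in the GFRA2 nuclei, and SLC17A8 at 28.8% in the IL31RA class is the one reference share above 11%.

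At the lower edges of the rule, on GFRA2 and on depth, more nuclei held neither gene. The 60 members with exactly 2 GFRA2 UMIs split into 7 with LPAR3 only, 11 with SLC17A8 only, 23 with both and 19 with neither. The 154 nuclei just outside, with 1 GFRA2 UMI, split into 7, 23, 22 and 102. The 12 members between 2000 and 4000 UMIs split into 2, 2, 3 and 5, and the 3 GFRA2 nuclei below 2000 UMIs held neither gene. The 6 deepest members, of 40000 UMIs or more, split into 0, 1, 3 and 2, and the 15 GFRA2 nuclei above 50000 UMIs into 1, 3, 9 and 2.

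The GFRA2 rule also took in nuclei with markers of other sensory neurons, and these were unevenly spread. At least 3 UMIs of TRPM8, IL31RA, ADCYAP1, PVALB (a marker of proprioceptors) or NTRK2 (the receptor TrkB of touch neurons) were present in 11 of 39 nuclei on the LPAR3 side (28.2%, interval 15% to 44.9%). They were present in 16 of 32 on the SLC17A8 side (50%, 31.9% to 68.1%), in 19 of 95 with both (20%, 12.5% to 29.5%) and in 26 of 39 with neither (66.7%, 49.8% to 80.9%). The 72 nuclei with such markers had a median of 16680 UMIs and the other 133 had 8163, so a fixed minimum of 3 UMIs takes deeper nuclei more readily. TRPM8 was the most unequal of the 5, with at least 3 UMIs in 3, 9, 3 and 19 nuclei of the 4 groups. Its level was 146 CPM on the LPAR3 side, 494 on the SLC17A8 side, 28.5 in the nuclei with both and 573 in those with neither, against 634 in the TRPM8 class. On the SLC17A8 side 18 of 32 nuclei had 0 TRPM8 UMIs and 1 nucleus of library 6 held 117 of the 255, and without it the level was 287 CPM. In library 5 the sides were level, at 204 and 212 CPM. Of the 6 C_TRPM8 markers, FOXP2 and RXFP1 were also at least 2-fold higher on the SLC17A8 side.

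Without the 72 nuclei, 133 remained, with 28 on the LPAR3 side, 16 on the SLC17A8 side, 76 with both and 13 with neither. Nuclei with both then made up 57.1% (48.3% to 65.7%). LPAR3 was present in 82.6% of nuclei with SLC17A8 (73.3% to 89.7%) against 68.3% of those without (51.9% to 81.9%), with overlapping intervals. The groups with 1 gene or none lost a larger part of their nuclei than the group with both, which lost 19 of 95. How far these markers account for the differences between the sides was not tested.

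The genes known from mouse C-fibre touch neurons were not concentrated on the SLC17A8 side. PIEZO2, the channel of light touch, was at 1864 CPM on the LPAR3 side (1731 to 2005), 1038 on the SLC17A8 side (952 to 1130), 2066 in the nuclei with both and 314 in those with neither. Its level per nucleus ran from 114 to 3833 CPM with a median of 1989 on the LPAR3 side, and from 0 to 4502 with a median of 937 on the SLC17A8 side. All 39 nuclei of the LPAR3 side and 25 of 32 of the SLC17A8 side held PIEZO2. The sides overlapped over most of their range, and the pooled ratio was 1.80-fold higher on the LPAR3 side (1.60 to 2.01). In library 5 it was 1.49-fold, and without the nuclei with other types' markers 1.42-fold.

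TAFA4, a secreted protein of mouse C-fibre touch neurons, was at 108 CPM on the LPAR3 side (77.6 to 146) and 110 on the SLC17A8 side (83.6 to 143). It was detected in 22 of 39 and 19 of 32 nuclei, and reached 140 CPM and 77 of 95 nuclei where both genes were present. The side ratio of TAFA4 was 1.02-fold toward the SLC17A8 side, with an interval of 0.676 to 1.57 that spans no difference. The cadherin CDH9 was at 141 CPM on the LPAR3 side and 94.9 on the SLC17A8 side, a ratio of 1.49 (0.993 to 2.23). The transcription factor ZNF521 was at 300 and 275 CPM, a ratio of 1.09 (0.847 to 1.40). Tyrosine hydroxylase (TH), which marks these neurons in the mouse, gave 1 UMI on the LPAR3 side and 3 on the SLC17A8 side, and the calcium-binding protein CASQ2 gave 1 and 2. Both were at or under the floor of 3 counts over the group, which leaves 2 defining mouse markers close to undetected in all of the sides' nuclei.

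Other members of the touch programme had ratios in both directions. The A-type potassium channel subunit KCND3 was at 1315 CPM on the LPAR3 side and 662 on the SLC17A8 side, 1.99-fold, and 1.26-fold in library 5. The T-type calcium channels CACNA1H (82.0 and 83.3 CPM) and CACNA1I (51.3 and 27.1 CPM) had ratio intervals that included 1. BNC2, a zinc finger protein, was at 338 and 310 CPM. The transcription factor NFIA was lower on the LPAR3 side, at 149 and 184 CPM, and MAF, another transcription factor, was at 28.2 and 32.9 CPM, both with ratio intervals that included 1. Of the 14 touch programme genes with at least 20 UMIs, 9 had a ratio above 1. The transcription factor PBX3 (17 and 6 UMIs, and 11 and 0 in library 5) was at least 2-fold higher on the LPAR3 side. None was at least 2-fold higher on the SLC17A8 side. The median log2 ratio of the touch programme was 0.19, beside -0.06 over 7216 genes with at least 20 UMIs, of which 3.01% were 2-fold higher on the LPAR3 side and 6.85% on the SLC17A8 side.

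Of the genes known from mouse MRGPRD neurons, most were higher on the LPAR3 side and a few were level or ran the other way. GNA14, a G protein alpha subunit, was at 485 CPM on the LPAR3 side (418 to 559), 227 on the SLC17A8 side (187 to 272), 577 in the nuclei with both and 159 in those with neither. It was detected in 37 of 39, 26 of 32, 93 of 95 and 23 of 39 nuclei. The side ratio of GNA14 was 2.14 (1.69 to 2.72), and 1.62 in library 5. The kainate receptor subunit GRIK1 was at 244 and 110 CPM on the sides, with 286 in the nuclei with both. Its ratio was 2.21 (1.57 to 3.12) and stayed at 2.19 in library 5 and 2.13 without other types' nuclei.

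The GDNF family co-receptor RET was at 733 CPM on the LPAR3 side, 511 on the SLC17A8 side and 850 with both. The ratio was 1.43 over all libraries and 0.983 in library 5, where 1 library supplied both sides. The sodium channel SCN11A followed the same course, at 349 and 211 CPM pooled (1.65-fold) and 1.02-fold in library 5. The membrane protein TMEM45B was at 94.9 and 52.3 CPM, and the transcription factor KLF5 at 71.8 and 36.8 CPM. RUNX1, the transcription factor that specifies nonpeptidergic neurons, was at 341 CPM on the LPAR3 side, 414 on the SLC17A8 side and 506 with both. The semaphorin receptor PLXNC1 was at 251 and 209 CPM, a ratio of 1.20 (0.905 to 1.59). The ATP-gated channel P2RX3 had 8 UMIs on the LPAR3 side and 1 on the SLC17A8 side, too few for more than the counts. The irritant channel TRPA1 ran the other way, at 71.8 CPM on the LPAR3 side and 103 on the SLC17A8 side, and at 96.5 and 195 CPM in library 5. LPAR5 had 1 and 0 UMIs. MRGPRD itself was not analysed here, since no row carried its symbol.

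Of the 10 MRGPRD programme genes with at least 20 UMIs, 8 had a ratio above 1, 2 (GNA14 and GRIK1) were 2-fold higher on the LPAR3 side and none was 2-fold higher on the SLC17A8 side. The median log2 ratio was 0.62. Over all 7216 genes, 45.5% had a ratio above 1 and 3.01% were 2-fold higher on the LPAR3 side. RET and RUNX1 stand in both programmes. Summed over the rows of each programme with the rule's genes left out, the MRGPRD programme was at 2713 CPM on the LPAR3 side, 1946 on the SLC17A8 side, 3294 with both and 1186 with neither. The touch programme was at 5572, 3834, 6360 and 2390 CPM in the same order. In these sums both programmes had the same order of groups. The nuclei that held both genes were highest, the LPAR3 side next, the SLC17A8 side below it and the nuclei with neither lowest. Without other types' nuclei the sums kept this order. The per-nucleus median of the MRGPRD programme was then 2865 CPM on the LPAR3 side and 3102 on the SLC17A8 side, so the sides changed places. That of the touch programme was 6488 and 5001 CPM.

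**Figure D4:**
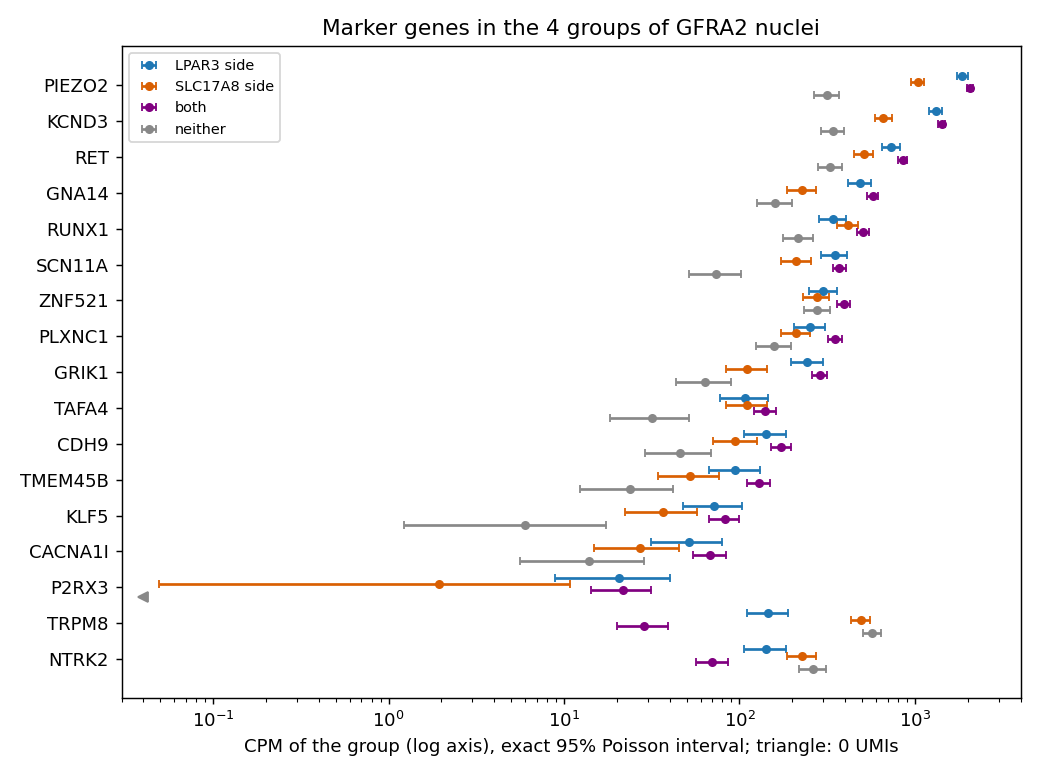
CPM on a log axis, with exact 95% Poisson intervals, of touch and MRGPRD programme genes and of TRPM8 and NTRK2 in the LPAR3 side (blue), the SLC17A8 side (orange), the nuclei with both (purple) and those with neither (grey). TAFA4 is level between the sides at 108 and 110 CPM, PIEZO2 and GNA14 are lower on the SLC17A8 side, and TRPM8 runs the other way.

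Over all genes, few differed by 2-fold, and the larger number was higher on the SLC17A8 side. Of 3784 genes that reached 50 UMIs when the sides were added, 60 (1.59%) were at least 2-fold higher on the LPAR3 side and 187 (4.94%) on the SLC17A8 side, with a median log2 ratio of -0.07. The sides' sums were 390012 UMIs (median per nucleus 8973) and 516464 UMIs (median 11966). Of the 187 genes, 101 had over 25% of the higher side's UMIs in 1 nucleus, against 8 of the 60. Nuclei of library 4 were that nucleus for 76 genes, and 1 library 4 nucleus of 37623 UMIs for 39. It held 626 of the 817 UMIs of KAZN, a desmosomal protein, on the SLC17A8 side and 59 of the 90 UMIs of NTRK3, the receptor TrkC of large-fibre neurons. KAZN was 1582 CPM on the SLC17A8 side and 146 on the LPAR3 side, and in library 5 it ran the other way, at 70.6 and 178 CPM.

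Other cuts changed both the number of genes tested and the share that passed. In library 5 alone, 19 of 1788 genes (1.06%) were 2-fold higher on the LPAR3 side and 22 (1.23%) on the SLC17A8 side. Of the pooled calls, 23 of 60 and 38 of 187 were still 2-fold in library 5, and 58 and 144 kept their direction there. Library 5 supplied part of the pooled values, so this is no second sample. Without nuclei with other types' markers, 55 of 1751 genes (3.14%) and 134 (7.65%) passed, which is a larger share of fewer genes than in the pooled comparison. When the library 4 nucleus was left out as well, 48 of 1537 (3.12%) and 60 (3.90%) passed, so the excess of genes on the SLC17A8 side shrank to 60 against 48. Left-out libraries also moved the counts: without library 4, 46 and 99 genes passed on the LPAR3 and SLC17A8 sides, and without library 5, 146 and 395.

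**Figure D5:**
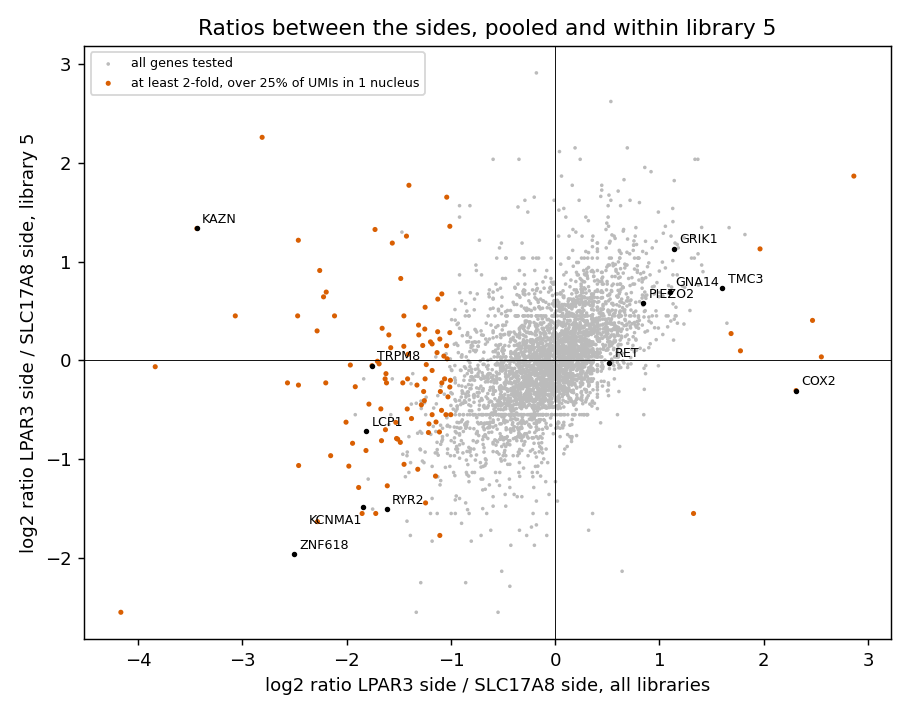
Log2 ratio of the LPAR3 side over the SLC17A8 side for each gene tested, over all libraries (horizontal axis) and within library 5 (vertical axis). Orange points are genes at least 2-fold apart with over 25% of the higher side's UMIs in 1 nucleus, and black points are labelled genes, with library 5 counts of 0 set at the floor. Orange points lie mostly on the left, many of them near 0 or above it in library 5, as KAZN and TRPM8 do.

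Genes higher on the LPAR3 side were mostly also high in the nuclei with both genes. TMC3, a member of the transmembrane channel-like family, was at 464 CPM on the LPAR3 side, 153 on the SLC17A8 side, 452 with both and 95.5 with neither. It was detected in 30 of 39 and 20 of 32 nuclei of the sides, with a ratio of 3.03 (2.32 to 4.00) and 1.66 in library 5. The zinc finger gene ZNF804A was at 295, 110, 339 and 55.7 CPM in the same order of groups, and CHN2, a Rac GTPase-activating protein, at 236, 91.0, 232 and 67.6. The epithelial cadherin CDH1 was at 290, 128, 210 and 165 CPM, 2.27-fold between the sides and 2.20-fold in library 5. The cytokine receptor OSMR, which is high in the IL31RA class at 289 CPM, was at 182 CPM on the LPAR3 side and 83.3 on the SLC17A8 side (2.19-fold, and 2.01-fold in library 5).

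The other receptor and signalling genes on that side were low to moderate. The TGF-beta receptor TGFBR1 was 3.38-fold higher (59.0 and 17.4 CPM), the GABA-A receptor subunit GABRA5 3.36-fold (84.6 and 25.2 CPM) and the G protein regulator RGS10 2.41-fold (51.3 and 21.3 CPM). The guidance genes SEMA3A (126 and 60.0 CPM) and DCC (51.3 and 23.2 CPM) and the transcription factor CASZ1 (110 and 50.3 CPM) were 2.09-fold to 2.21-fold higher. Beyond the lists, MB21D2, EPB41L4A, PDIA5, FAM124A, PAK5 (a kinase) and SPTB (a spectrin) were 2.52-fold to 3.18-fold higher. All 6 were at least 2-fold higher in library 5 too. The mitochondrial gene ND4 was at 1826 and 583 CPM pooled but at 70.5 and 54.3 in library 5. In all, 8 of the 60 genes were mitochondrial, and the summed mitochondrial level was 38835 CPM on the LPAR3 side and 9935 on the SLC17A8 side. It ran from 0 to 453845 CPM per nucleus with a median of 1672 on the LPAR3 side and 1083 on the SLC17A8 side, and library 3 gave 7 nuclei to the LPAR3 side and 1 to the SLC17A8 side. Of the 712 ND4 UMIs of the LPAR3 side, 541 came from library 3, where ND4 was at 10240 CPM on the LPAR3 side and 12875 on the SLC17A8 side.

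Several named genes higher on the SLC17A8 side were also higher in the nuclei with neither gene than in those with both. No count of this is given for all 187 genes. RYR2, a calcium release channel, was at 305 CPM on the LPAR3 side, 935 on the SLC17A8 side, 188 with both and 1033 with neither, and at 617 to 1991 in the 4 reference classes. It was detected in 22 of 39 and 26 of 32 nuclei of the sides, and was 3.07-fold higher on the SLC17A8 side (2.50 to 3.78), 2.84-fold in library 5 and 5.05-fold without other types' nuclei. The calcium-activated potassium channel KCNMA1 was at 92.3, 331, 128 and 300 CPM in the 4 groups, 3.59-fold between the sides and 2.80-fold in library 5, but 1.26-fold without other types' nuclei. The actin-bundling protein LCP1 was at 179, 629, 137 and 669 CPM, and the sulfotransferase UST at 87.2, 302, 84.6 and 364. CNTN3, a contactin, was at 197, 451, 136 and 589 CPM, against 610 in the TRPM8 class.

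Several of these ratios did not hold in library 5 or without other types' nuclei. The calcium channel CACNA1D was 2.61-fold higher on the SLC17A8 side when pooled, 1.18-fold in library 5 and 0.874-fold without other types' nuclei. The ephrin receptor EPHB1 was 2.33-fold and 1.02-fold, with 216 CPM in the TRPM8 class and 16.2 in the nuclei with both. MYRIP was 3.57-fold and 1.14-fold, C3orf70 2.95-fold and 1.14-fold, DNMBP 2.98-fold and 1.46-fold, and ZNF385B 3.78-fold and 1.46-fold. The sarcoglycan SGCZ (3.36-fold) and the transcription factor RUNX2 (2.19-fold) were 0.726 and 0.968 when both other types' nuclei and the library 4 nucleus were left out. The glutamate receptor subunit GRIA2 was 2.43-fold higher when pooled and 1.40-fold in library 5. ZNF618 was 5.66-fold higher when pooled (45 and 6 UMIs) and 3.90-fold in library 5. The guidance receptor NRP1, the channel TRPM2, the potassium channel KCNN3 and KCNH5 were 2.20-fold to 2.64-fold higher, on 32 to 42 UMIs each on that side.

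By gene family, calls were read beside the shares over all 7216 genes with at least 20 UMIs, 3.01% higher on the LPAR3 side and 6.85% on the SLC17A8 side. Of 37 potassium and HCN channel genes with at least 20 UMIs, 0 were 2-fold higher on the LPAR3 side and 8 on the SLC17A8 side, with a median log2 ratio of -0.52. Of 17 calcium channel genes the counts were 0 and 6 (median -0.75), and of 56 adhesion and guidance genes 2 and 14 (median -0.39). Without other types' nuclei the counts were 0 and 6 of 29 potassium channel genes (median 0.04) and 0 and 3 of 13 calcium channel genes (median 0.19). Adhesion genes gave 2 and 16 of 45 (median -0.34). Over all genes with at least 50 UMIs, the shares in that cut were 3.14% and 7.65%. They were 3.12% and 3.90% when the library 4 nucleus was also left out. The family counts still include that nucleus. Of 9 sodium channel genes 0 passed in either direction, and SCN10A, the channel of C-fibre nociceptors, was at 874 CPM on the LPAR3 side, 465 on the SLC17A8 side and 862 with both. In library 5 SCN10A was 1.12-fold apart. Of 36 transcription factor genes, 3 and 4 passed. Summed satellite glia markers were 756 CPM on the LPAR3 side and 1301 on the SLC17A8 side, with per-nucleus medians of 620 and 785 and none of the 8 markers at 0 on either side. Schwann cell markers were 941 and 866 CPM, with 1 and 2 of 10 at 0. The part of these cells' RNA in the side ratios was not tested.

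The nuclei with both genes, which the side comparison did not use, lay nearer the LPAR3 side for 52 of the 60 genes higher there and for 163 of the 187 genes higher on the SLC17A8 side. The genes were chosen for their difference between the sides, so these counts are a description. They were taken with other types' nuclei included. In the programme sums the nuclei with both genes were also closer to the LPAR3 side. Per-nucleus medians without other types' nuclei differed between the programmes. That of the MRGPRD programme was 3440 CPM with both, nearer the SLC17A8 side (3102) than the LPAR3 side (2865). That of the touch programme was 6781 CPM with both, nearer the LPAR3 side (6488) than the SLC17A8 side (5001).

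Within the 1 library that allowed it, the share of same-side neighbours in the rest of the transcriptome was near that of equal mixing. With LPAR3, SLC17A8 and GFRA2 left out, in library 5 54.2% of the 10 nearest neighbours of a nucleus lay on its own side, where equal mixing gives 53.3%, a difference of 0.92 percentage points over 40 nuclei. For the 26 LPAR3-side nuclei the share was 63.5% against 64.1%, and for the 14 SLC17A8-side nuclei 37.1% against 33.3%. The difference of 0.92 points has no interval, and its sign changed with the depth window and with the number of genes used. This library was also the one in which no association of LPAR3 and SLC17A8 was seen, within wide intervals. No other library had 10 nuclei on each side.

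The 4 groups were also placed together. In library 5, 48.5% of the neighbours of LPAR3-side nuclei were nuclei with both genes (39.5% under mixing), and 2.69% were nuclei with neither (12.3%). For SLC17A8-side nuclei of that library the shares were 36.4% with both (39.5%) and 10.7% with neither (12.3%). Nuclei with neither gene had 16% of their neighbours in their own group in library 5 (11.11% under mixing), 17% in library 1 (22.0%) and 36.4% in library 6 (34.2%). The SLC17A8-side nuclei of library 5 had 22.1% in their own side (16.0%). In library 3 the 7 LPAR3-side nuclei had 90% of their neighbours among nuclei with both, where mixing gives 71.4%. In library 6 the 5 SLC17A8-side nuclei had 36% among nuclei with both (50% under mixing) and 48% among those with neither (36.8%). In library 1 the shares with both were 58% for the 5 LPAR3-side and 55.6% for the 9 SLC17A8-side nuclei, against 43.9%. LPAR3-side nuclei were thus placed among nuclei with both genes in all 3 libraries measured, and SLC17A8-side nuclei in library 1 but not in libraries 5 and 6. Without other types' nuclei, SLC17A8-side nuclei of library 5 had 51.2% of neighbours with both (44.8% under mixing), and LPAR3-side nuclei had 54.5% (44.8%). In that cut the 8 SLC17A8-side nuclei had 20% of neighbours in their own side (12.1% under mixing). The 20 LPAR3-side nuclei had 30% in theirs (32.8%).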

How the data were processed

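The authors deposited 1 table of raw UMI counts per gene and nucleus, with no normalization; the submitters' processing notes name Cell Ranger 6.0.1, Seurat and the build Sscrofa11.1 without roles. Library protocols are per the labels. Whether nuclei or doublets were filtered earlier is not stated in the sources, and no doublet caller was run. Nuclei were grouped by UMIs of GFRA2, LPAR3 and SLC17A8 as the report states. Members, lists and tests were chosen with earlier results of these data known. Of the rows, 14012 carried Ensembl identifiers, 773 of which received a symbol from a gene name table.

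UMIs were summed over each group and given as CPM with exact Poisson intervals. Ratios have exact conditional binomial intervals and shares have Clopper-Pearson intervals, all at 95% and for counting error only. Where a side had 0 UMIs, its floor was 3 UMIs summed over that side. Fold calls needed 50 UMIs over both sides (20 for lists). Log2 ratios of CPM used no other pseudocount. Named genes were all detected programme members, the 12 list genes and the 8 other genes with the largest ratios in each direction, where the interval excluded 1, library 5 had the same direction and no nucleus held over 25% of the higher side's UMIs. List genes needed 30 UMIs and other genes 50. TRPM8, NTRK2, NTRK3, KAZN and SCN10A were added as markers or after their values were seen. Reference classes needed 3 UMIs of TRPM8, IL31RA or ADCYAP1, or 5 of large-fibre markers. Neighbours came from 1000 variable genes, log-normalized and centred by library, and 20 principal components. Thinning drew 2000 UMIs per nucleus. The scripts were checked on simulated data and used Python 3.11.15, numpy 2.4.6, pandas 2.3.3 and scipy 1.17.1. One gene that met the naming rule is not reported here. No sequence is printed, since no sequence table was used here.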

Additional observations from a re-analysis of the deposited data

Results flagged for a closer look

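A further 15 nuclei with at least 2 GFRA2 UMIs lay above 50000 UMIs and outside the comparison, and 60% of them held both LPAR3 and SLC17A8 (32.3% to 83.7%). They split into 1 with LPAR3 only, 3 with SLC17A8 only, 9 with both and 2 with neither, at a median of 60980 UMIs. The value is given because these nuclei were not used in the report. The reference classes held both genes in at most 2.70%, but at medians of 6112.5 to 9446.5 UMIs and none above 50000, so the depths are unlike. Doublets among such deep nuclei were not tested.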

How the results depend on the processing

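The share of GFRA2 nuclei with both genes, 46.3%, moved to 32.6% with GFRA2 at 1 UMI or more, to 57.1% without nuclei with other types' markers, to 57.6% when the library 4 nucleus was also left out, and to 8.51% when nuclei were thinned to 2000 UMIs before GFRA2 was read. Leaving out each library in turn gave 41.4% to 51.2%. The 60 genes higher on the LPAR3 side became 150 with no upper limit on depth, 144 (beside 126 on the SLC17A8 side, so that the larger number changed sides) when library 5's values were used for the same 3784 genes, 7 after thinning, 30 with at least 100 UMIs and 217 with at least 20, and 46 to 146 over left-out libraries. The 187 higher on the SLC17A8 side became 72 when a side needed 2 UMIs, 8 after thinning, 94 with at least 100 UMIs, 494 with at least 20, and 60 without other types' nuclei and the library 4 nucleus, and 99 (without library 4) to 395 (without library 5) over left-out libraries. The same-side difference of 0.92 points reversed to -0.360 between 4000 and 50000 UMIs and to -0.0833 with 2000 variable genes, and was 3.17 with 5 neighbours; left-out libraries gave 0.917 to 0.917, since library 5 alone entered it. It gave no value without library 5, after thinning, without other types' nuclei, with GFRA2 at 3 UMIs, or when a side needed 2.

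Of 60 named genes, 34 kept one sign of the log2 ratio in all 23 alternatives, and of 1086 values 14 reversed a call and 170 moved. The reversals were NRP1 (0.34) and PAK5 (-0.33) with no upper limit, KCNH5 (0.0748) when a side needed 2 UMIs, CACNA1D (0.19) and KCNH5 (0.25) without other types' nuclei, ND4 (-0.0491) with nuclei of both genes assigned by majority, and GNA14 (-0.12) and ZNF804A (-0.41) after thinning. With the library 4 nucleus also left out they were DCC (-0.22), CACNA1D (0.75), KCNH5 (0.63), RUNX2 (0.0465), LCP1 (0.0465) and SGCZ (0.46). The cause was not tested. The 2 alternatives that leave out the library 4 nucleus were chosen after seeing the data. No paired analysis was possible because nothing maps nuclei to pigs and no test was made. With about 1 UMI of LPAR3 or SLC17A8 in most nuclei of a side, absence of the other gene from a nucleus was not measurable at this depth.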
